A study of Mus musculus with 2 samples.

Results

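Neutrophils infiltrating B16-F10 melanomas were described in single-cell RNA profiles of mice with an induced deletion of Trex1 and of their controls. A barcode was taken as a neutrophil when it held at least 10 UMIs (unique molecular identifiers, each standing for 1 captured RNA molecule) of S100a8 and S100a9 together, at least 2 of Csf3r and G0s2 together, and no UMI of Csf1r, Cd3e or Cd79a. Of 22490 barcodes kept after a filter on detected genes and mitochondrial RNA, 910 met that rule, 697 of 8959 in the controls and 213 of 13531 in the knockouts. The members were thus chosen by the measured counts of these 7 genes, whose levels are given below as a description and are read as no result in any test.

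Neutrophils are short-lived granulocytes that leave the bone marrow with their granule proteins already made, enter tissue along chemokine gradients and, in tumours, can shift to a hypoxia- and cytokine-shaped state. TREX1 is a cytosolic exonuclease that degrades DNA, and in its absence cytosolic DNA can activate the cGAS-STING pathway and the production of type I interferon. Type I interferon binds IFNAR on most cells and, through JAK-STAT signalling, switches on interferon-stimulated genes, which carry a response element in their promoters.

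The knockout group (iKO) carried Trex1 fl/fl-R26CreERT2-ki/wt and the control group carried Trex1 wt/fl-R26CreERT2-ki/wt, so that both had the inducible Cre and the controls still carried 1 floxed allele. The Cre was driven from the Rosa26 locus, which is active in nearly all cells, so the deletion was not restricted to neutrophils. All mice were male, 8 to 12 weeks old, received 1000 B16-F10 cells (a mouse melanoma line) in Matrigel in the skin of both legs and were given 1 mg tamoxifen on 3 days from day 5. Tumours were taken on day 14, live CD45+ cells were enriched with beads and sorted, and 4 hashtagged samples of each genotype were run as 1 pool per genotype on the 10x platform.

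Genotype and pool cannot be told apart in this design, since each genotype was 1 pool. The labels do not say that each hashtagged sample was 1 mouse, so the p-values measure the spread between these samples, which may be technical. The samples are called control 1 to 4 and iKO 1 to 4. The labels do not say whether a number shared by both genotypes pairs them, and they were treated as unpaired. Summed UMIs per sample were 17111065 to 33319752 in the controls and 19370674 to 96457227 in the knockouts. No barcode was shared within a pool, and none of the 45 barcodes found in both pools was a neutrophil in both. The labels call the sorted cells lymphocytes, but the gate was CD45+, which also holds neutrophils and other myeloid cells.

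The cells found by the rule carried neutrophil transcripts that the rule had not used. Between 91.6% and 100% of them in each sample held at least 2 UMIs of 6 further markers together: the chemokine receptor Cxcr2, Retnlg, the gelatinase Mmp9, the histidine decarboxylase Hdc, the decoy receptor Il1r2 and the surface antigen Ly6g. The same was true of 16.7% to 37.3% of Csf1r-positive myeloid barcodes and 8.46% to 16.7% of Cd3e-positive barcodes, at unequal depth. After every cell was thinned to 1000 UMIs, Cxcr2 was detected in 39.1% to 49.7% of control and 32.5% to 69.7% of iKO neutrophils (61.1% to 74.8% and 55.4% to 97.0% before thinning). In Cd3e-positive cells, which should lack it, thinned detection was 0.563% to 3.27% in controls and 0.0754% to 1.06% in knockouts. Their median depth before thinning was 6284 to 7745 UMIs in controls and 7503 to 15602 in knockouts. That of neutrophils was 3701 to 5146 and 5617 to 9260. The part of free RNA in the neutrophil barcodes was not tested. The 30 genes of the neutrophil identity list summed to 34605 to 43406 CPM (each gene's UMIs per 1000000 UMIs of the cells summed) in control and 32986 to 62189.6 CPM in iKO neutrophils. The same sum was 3861 to 5175 and 3989.5 to 5028 CPM in Csf1r-positive myeloid cells.

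The genes that chose the cells were abundant in every sample. S100a8 and S100a9 encode the subunits of calprotectin: S100a8 stood at 32671 to 76437 CPM in the controls and 48399.9 to 129611 CPM in the knockouts, and S100a9 at 43304 to 97363 and 63591 to 110087 CPM. Csf3r, the G-CSF receptor, stood at 835 to 1273 and 699 to 1013 CPM, and G0s2, an inhibitor of lipolysis, at 2087 to 2581 and 2097 to 5008 CPM. Several transcripts of early stages were nearly absent. The primary-granule genes Mpo and Ctsg and the ficolin gene Fcnb had no count in any sample, and Elane was found in iKO 4 alone, at 3.66 CPM. Near the thresholds, each sample held 0 to 11 barcodes just inside the S100 limit (10 to 19 UMIs) and 0 to 9 just outside it (5 to 9 UMIs). For Csf3r and G0s2 the counts were 0 to 41 just inside (2 or 3 UMIs) and 0 to 82 just outside (0 or 1). A further 481 barcodes met the rule except that they held Csf1r, which was 20.2% to 45.9% of the 1391 barcodes otherwise inside it, by sample; their identity-list sum was 17588 to 26121 CPM in controls and 19780.5 to 40773 CPM in knockouts, between those of neutrophils and Csf1r-positive myeloid cells.

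Trex1 itself could not be checked in these cells. No Trex1 UMI was found in the neutrophils of any sample, so its level lay below a limit of 3 counts per sample, which is 2.86 to 5.07 CPM in the controls and 5.50 to 21.5 CPM in the knockouts and covers counting error only.

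Neutrophils made up a smaller share of the CD45+ cells in the knockouts. They were 6.72%, 9.46%, 5.47% and 10.0% of kept barcodes in control 1 to 4, from 133, 162, 151 and 251 cells, and 0.646%, 1.41%, 2.53% and 2.93% in iKO 1 to 4, from 25, 83, 33 and 72 cells. Every control sample lay above every iKO sample. The means were 7.92% ± 2.18 (SD, n = 4) and 1.88% ± 1.04 (SD, n = 4), a difference of -6.04 percentage points and a ratio of 4.21, with p = 0.0286 in a two-sided exact permutation test, the smallest p that 4 samples against 4 allow. A share of sorted cells also falls when other cells rise, and the number of neutrophils per tumour was not measured.

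**Figure D1:**
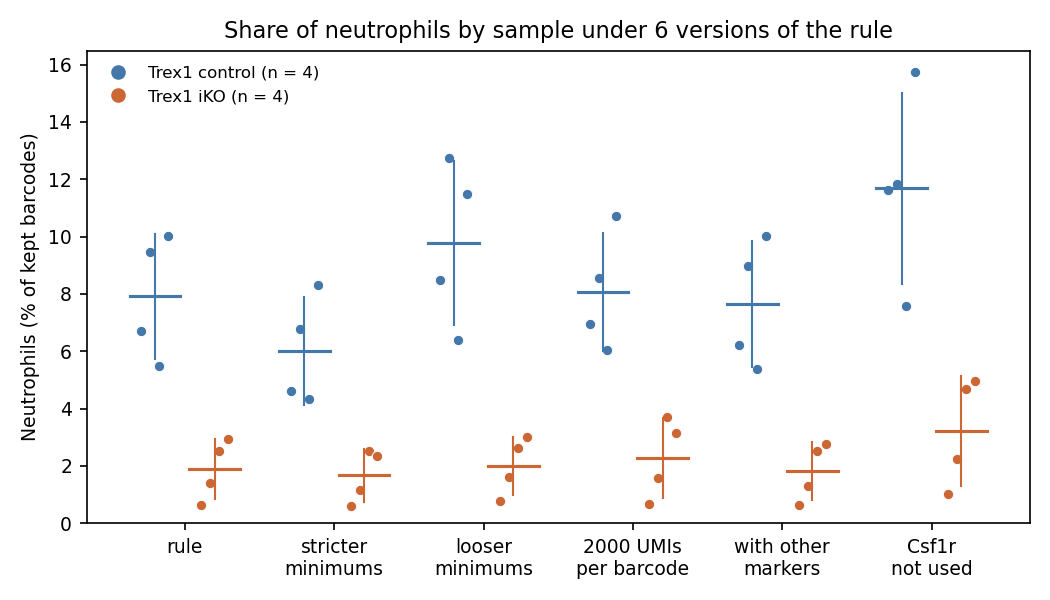
Neutrophils as a percentage of kept barcodes (vertical axis) in each of the 8 samples under 6 versions of the rule (horizontal axis), with controls and iKO in separate colours and lines for mean ± SD. Under the rule used, control samples sit between 5.47% and 10.0% and iKO samples between 0.646% and 2.93%; the groups are apart under each version drawn.

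The difference was present against other reference populations too. Per 100 Csf1r-positive myeloid cells, there were 29.5 neutrophils on average in the controls and 4.46 in the knockouts. Per 100 Cd3e-positive barcodes the means were 37.1 and 7.67. Stricter thresholds (20 and 4 UMIs) gave 6.0% and 1.66%, looser ones (5 and 1) gave 9.78% and 2.00%, and leaving Csf1r out of the rule gave 11.7% and 3.23%. The groups did not overlap in any of these versions (p = 0.0286 in each, two-sided exact permutation test).

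The knockout neutrophils also held more UMIs each. The median UMI count per neutrophil was 5146, 3701, 3728 and 4077 in control 1 to 4 and 5672, 5617, 9260 and 6654.5 in iKO 1 to 4, with means of 4163 ± 677 and 6801 ± 1707 (SD, n = 4 each; p = 0.0286, two-sided exact permutation test). The median number of genes was 1277 ± 92.1 in controls and 1608 ± 156 in knockouts (p = 0.0286, two-sided exact permutation test). In Csf1r-positive myeloid cells of the same samples the median UMI counts overlapped between groups. Their means were 14523 ± 633 and 15402 ± 1143 (SD, n = 4 each; p = 0.257, two-sided exact permutation test). Where the difference in neutrophils came from was not tested. A deeper cell meets a minimum of UMIs more easily and an absence of Csf1r less easily. With each barcode thinned to 2000 UMIs before the rule was applied, the shares were 8.07% and 2.28%, again with no overlap.

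Gene expression was compared on the UMIs summed over the neutrophils of each sample, 139251 to 1049604 per sample, with edgeR's quasi-likelihood test. Of 4475 genes tested, 81 (1.81%) passed a Benjamini-Hochberg adjusted p of 0.05, 76 higher (1.70%) and 5 lower (0.112%) in the knockouts. Of the 76, 53 belonged to lists of type I interferon, interferon-gamma or MHC class I genes. For single genes the values below are CPM after TMM scaling, so that differences in library composition are removed, and log2 fold changes are iKO over control.

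Type I interferon-stimulated genes rose together. Of 56 tested on that list, 41 were higher (73.2% of the list, against 1.70% of all genes tested) and none was lower; all 56 estimates were positive, with a median log2 fold change of 1.77 beside -0.04 for all genes. For 47 of the 56 no control sample overlapped an iKO sample, where 7.69% of all genes tested had groups that did not overlap, 4.27% higher and 3.42% lower in the knockouts.

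Among the most abundant members, Ifi27l2a, a small interferon-induced membrane protein, read 975, 1073, 1076 and 591 CPM in control 1 to 4 and 5200.0, 5671, 7357 and 4753 CPM in iKO 1 to 4. Every iKO sample lay more than 4 times above the highest control sample, and the log2 fold change was 2.63 ± 0.27 (SE; edgeR adjusted p = 0.000252). Isg15, an interferon-induced ubiquitin-like modifier that is attached to other proteins, read 439, 949, 953 and 372 CPM in the controls and 2218, 4666, 4110.1 and 2407 CPM in the knockouts. Its groups did not overlap either, and it rose by 2.31 ± 0.37 (edgeR adjusted p = 0.00438). Ifitm3, which restricts virus entry at endosomes, went from 1211 ± 147 to 4685 ± 1922 CPM (SD, n = 4 each; log2 fold change 1.95, edgeR adjusted p = 0.00270). Its neighbour in function Ifitm1 overlapped: 7804, 1787, 2113 and 3769.8 CPM in controls and 2233, 3764, 10434 and 6849.6 CPM in knockouts, with a log2 fold change of 0.59 and an edgeR adjusted p of 0.669.

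The largest relative rises were in genes that were close to silent in the controls. Ifit3, which belongs to a family that binds foreign RNA and blocks its translation, read 22.6, 129, 83.7 and 12.6 CPM in control 1 to 4 and 576, 1113, 771 and 490.1 CPM in iKO 1 to 4. The control samples differed among themselves about as widely on a log scale as the groups did from each other, yet the highest control stayed below the lowest knockout, and the log2 fold change was 3.60 ± 0.57 (edgeR adjusted p = 0.00399). Ifit2 rose by 3.46 and Ifit1 by 3.12, the latter from 77.8 ± 76.2 to 666 ± 213 CPM. Ifi206 and Ifi209, members of the DNA-sensing PYHIN family, rose by 3.36 and 2.66. Ifi206 went from 7.20 ± 4.33 to 78.7 ± 26.1 CPM. Xaf1, an interferon-induced promoter of apoptosis, rose by 2.83 (35.1 ± 9.05 to 249 ± 82.0 CPM), the ubiquitin ligase Herc6 by 2.82 and the RNA-activated synthetase Oas1a by 2.64. Ifit3 and Ifit3b are near-identical copies, so reads could be split between them.

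A regulator of the response was among the genes that rose. Irf7, the transcription factor that amplifies interferon production, read 63.2, 100.0, 82.1 and 37.8 CPM in control 1 to 4 and 288, 532, 593 and 289 CPM in iKO 1 to 4, a log2 fold change of 2.60 ± 0.34 (edgeR adjusted p = 0.00110). Irf9, the DNA-binding part of the ISGF3 complex, had groups that did not overlap (61.1 ± 3.59 and 116 ± 28.1 CPM) but an edgeR adjusted p of 0.0865. Rsad2, the antiviral enzyme viperin, overlapped between groups, at 94.8 to 450.1 CPM in controls and 403 to 1783 CPM in knockouts.

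**Figure D2:**
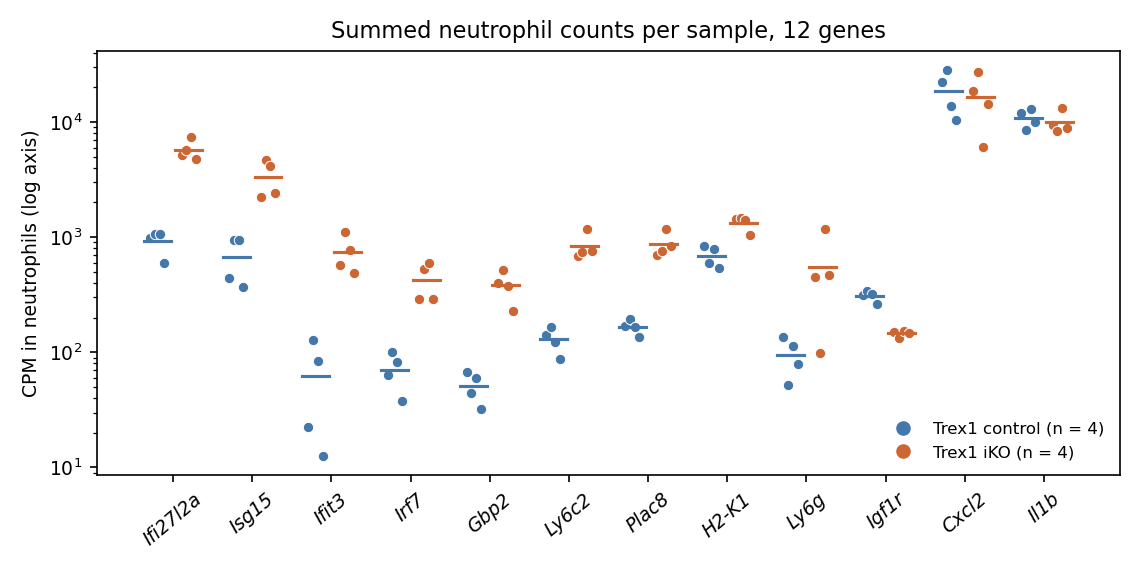
CPM in the neutrophils of each sample (vertical log axis) for 12 genes (horizontal axis), controls and iKO side by side, with a line for each mean. The knockout samples lie above all controls for Ifi27l2a, Isg15, Ifit3, Irf7, Gbp2, Ly6c2, Plac8 and H2-K1 and below them for Igf1r, while Ly6g, Cxcl2 and Il1b overlap.

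Because these genes moved together, their promoters were read for the core of the interferon-stimulated response element, GAAANNGAAA on either strand, in RefSeq's promoter table for GRCm38.p6 (250 bases before to 50 after a gene's start, 300 in all). The counts were made on GRCm39 and hold no coordinates, so the promoters were matched by gene symbol. Of the 76 genes that rose, 61 were in the table, and 29 of them (47.5%) held the motif, compared with 176 of 3624 tested genes (4.86%) and 3.99% of 27025 genes in the table. The gamma-activated site core TTCNNNGAA was found in 21.3% of the 61, 7.89% of the tested genes and 9.55% of the table. A match describes the letters in this window and is not evidence that a factor binds there. The 250 bases before the start are shown for the 4 genes with the largest rises among those whose motif lay there (Gbp2 encodes a guanylate-binding protein), 5′ to 3′ on the gene's strand with the motif in capitals. TTTCNNTTTC is the motif read on the opposite strand.
Ifit3, chr19:34583279-34583528 on the plus strand, matches beginning 156 and 122 bases before the start: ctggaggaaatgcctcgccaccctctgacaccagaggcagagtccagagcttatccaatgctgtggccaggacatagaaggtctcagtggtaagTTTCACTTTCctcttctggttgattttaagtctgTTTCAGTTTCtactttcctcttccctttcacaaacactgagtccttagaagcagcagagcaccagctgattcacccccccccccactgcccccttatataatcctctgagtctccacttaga
Ifi206, chr1:173491319-173491568 on the minus strand, 1 match beginning 40 bases before the start: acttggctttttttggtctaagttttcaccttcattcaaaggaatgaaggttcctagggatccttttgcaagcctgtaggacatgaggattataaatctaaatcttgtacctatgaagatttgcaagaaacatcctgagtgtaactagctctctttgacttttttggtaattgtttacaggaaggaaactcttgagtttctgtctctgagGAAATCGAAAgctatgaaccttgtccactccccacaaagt
Ifit1, chr19:34640639-34640888 on the plus strand, matches beginning 104 and 85 bases before the start: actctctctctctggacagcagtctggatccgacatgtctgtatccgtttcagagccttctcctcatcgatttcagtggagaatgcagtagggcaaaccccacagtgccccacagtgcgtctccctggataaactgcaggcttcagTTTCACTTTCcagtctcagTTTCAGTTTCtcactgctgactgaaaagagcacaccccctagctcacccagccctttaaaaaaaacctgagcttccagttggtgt
Gbp2, chr3:142620413-142620662 on the plus strand, 1 match beginning 59 bases before the start: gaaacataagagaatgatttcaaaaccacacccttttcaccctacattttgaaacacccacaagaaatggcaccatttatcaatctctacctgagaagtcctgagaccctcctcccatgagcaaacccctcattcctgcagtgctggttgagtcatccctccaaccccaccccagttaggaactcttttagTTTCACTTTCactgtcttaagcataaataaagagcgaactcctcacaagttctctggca
Ifit3 and Ifit1 each carried a pair of copies of the same 10-letter core, and Ifi206 and Gbp2 carried 1 each, nearer to the start.

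Genes of the interferon-gamma response also rose, although many of them answer to both interferon types. Of 16 tested, 6 were higher (Gbp2, Gbp7, Igtp, Irgm1, Irgm2 and Ifi47) and none was lower, with a median log2 fold change of 1.53. Among all genes tested, 1.70% were higher. Gbp2 read 67.7, 43.9, 59.6 and 32.0 CPM in control 1 to 4 and 403, 517, 379 and 229.8 CPM in iKO 1 to 4. Each knockout sample was at least 3 times above the highest control, and the log2 fold change was 2.92 ± 0.31 (edgeR adjusted p = 0.000252). Ifi47 and Irgm1, GTPases that act on vacuoles holding pathogens, rose by 2.96 and 2.39. Cxcl10, the chemokine that draws CXCR3-bearing T cells, was not called: it read 72.0, 721, 30.5 and 64.6 CPM in iKO 1 to 4 and 17.7 to 37.9 CPM in the controls (log2 fold change 3.02, edgeR adjusted p = 0.0780). The level of iKO 2 was far above that of every other sample.

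In MHC class I presentation, 6 of 18 genes tested were higher (Psmb8 and Psmb9 of the immunoproteasome, the peptide transporter subunit Tap1, and H2-T23, H2-Q4 and H2-T22) and none was lower, with a median of 0.95. The share higher over all genes tested was 1.70%. Psmb9 went from 91.1 ± 14.3 to 208 ± 55.7 CPM (log2 fold change 1.18, edgeR adjusted p = 0.0256), and H2-T23, the mouse Qa-1, from 179.7 ± 25.9 to 466 ± 100.4 CPM (1.37, edgeR adjusted p = 0.00524). H2-K1 read 838, 600.1, 786 and 542 CPM in the controls and 1426, 1479.8, 1403 and 1039 CPM in the knockouts. Its groups did not overlap, and its edgeR adjusted p of 0.0511 just missed the threshold; it passed in 10 of 17 alternative settings (adjusted p 0.00228 to 0.217 over all of them). H2-D1 (0.85, edgeR adjusted p = 0.119, called in 3 of 17 settings) and B2m (0.58, edgeR adjusted p = 0.307) had groups that did not overlap either. The H2 genes are close copies of one another, so their reads could be divided among them.

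Of 16 genes that sense nucleic acids or other microbial patterns, 6 were higher and none lower, with a median of 0.61. Over all genes tested the share higher was 1.70%. The 6 were the RNA helicases Ddx58 (RIG-I), Ifih1 (MDA5) and Dhx58, the nucleotide hydrolase Samhd1, the peptidoglycan sensor Nod1 and Zbp1, a sensor of left-handed nucleic acids. All but Nod1 are themselves known as interferon-stimulated genes. Zbp1 went from 63.8 ± 28.2 to 343 ± 94.6 CPM (log2 fold change 2.45, edgeR adjusted p = 0.00126) and Samhd1 from 292 ± 45.0 to 694 ± 219 CPM (1.24, edgeR adjusted p = 0.0165). Nlrp3, the inflammasome sensor, overlapped between groups (276 ± 90.2 and 217 ± 72.1 CPM).

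**Figure D3:**
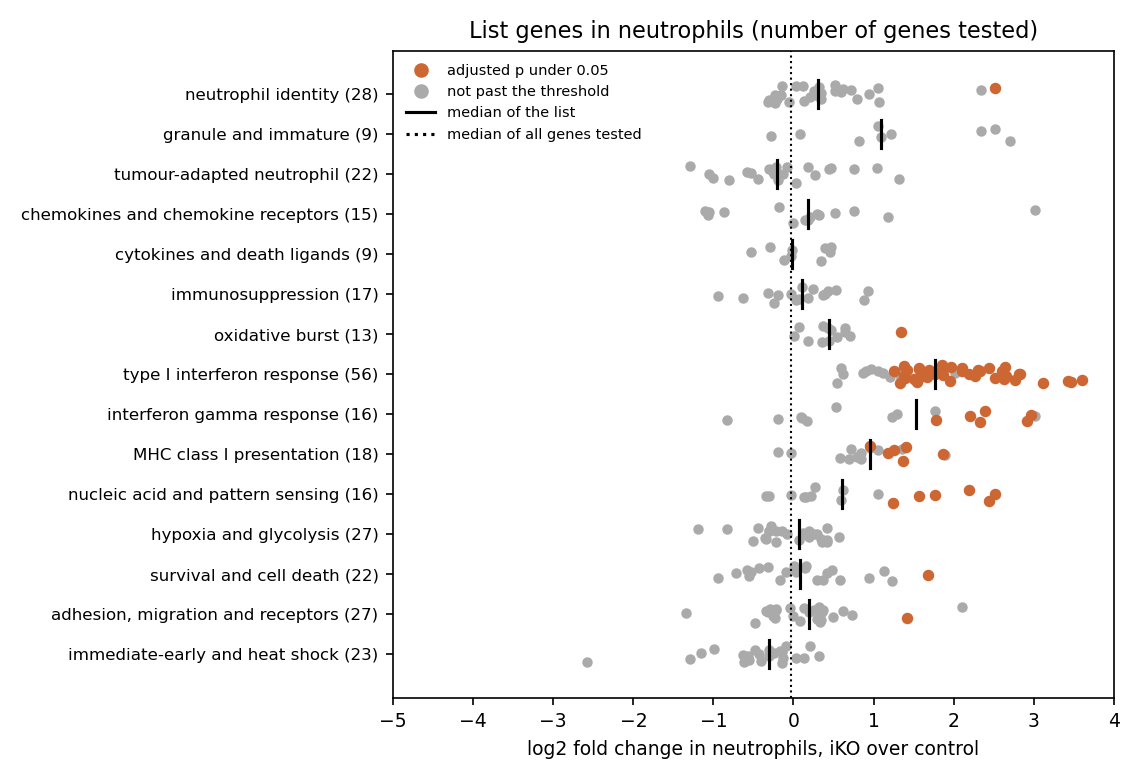
Log2 fold change, iKO over control (horizontal axis), of every tested gene in each of the gene lists (vertical axis), with genes of adjusted p under 0.05 in orange, a bar at each list's median and a dotted line at the median of all genes tested. The type I interferon list sits farthest to the right, with a median of 1.77, and the immediate-early and heat shock list has the lowest median of the program lists, -0.31.

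Outside the interferon lists, the pair with the smallest p-values was Ly6c2 and Plac8. Ly6c2 encodes the surface antigen Ly6C and read 141, 165, 124 and 87.3 CPM in control 1 to 4 and 684, 745, 1168 and 759.8 CPM in iKO 1 to 4. No sample overlapped, and the log2 fold change was 2.70 ± 0.26 (edgeR adjusted p = 0.000244). Plac8 read 168, 194, 166 and 135 CPM in the controls and 699, 765, 1181 and 839.6 CPM in the knockouts, a log2 fold change of 2.40 ± 0.23 (edgeR adjusted p = 0.000244). Both are also monocyte markers, and the 6-gene monocyte list summed to 322 to 469 CPM in control and 1451 to 1904 CPM in iKO neutrophils. The other monocyte markers did not move with them: Ccr2 was at 43.3 ± 10.5 and 40.9 ± 34.4 CPM, F13a1 at 23.8 ± 6.41 and 24.4 ± 20.8 CPM, and Ly86 at 10.5 to 40.3 and 4.36 to 36.1 CPM. Vcan fell under the filter on low counts and stood at 3.38 to 15.3 CPM in controls and 3.50 to 27.5 CPM in knockouts. In Csf1r-positive myeloid cells the monocyte list summed to 2903 to 5110.4 CPM in controls and 5459 to 8645 CPM in knockouts.

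Transcripts of other cell types were present at low levels in the neutrophil barcodes of both genotypes. The 13 macrophage markers summed to 978 to 2087 CPM in control and 430.4 to 1216 CPM in iKO neutrophils, the 12 T cell markers to 185 to 265 and 161 to 237 CPM, the 11 dendritic cell markers to 1165 to 1697 and 399 to 3684 CPM, and the 6 B cell markers to 79.1 to 150.4 and 52.6 to 76.9 CPM. The 11 markers of cytotoxic lymphocytes summed to 222 to 599 and 227 to 330.4 CPM, yet 1 of the 3 tested, the granzyme Gzmb, was higher in the knockouts: 19.0 ± 1.04 and 55.3 ± 23.1 CPM with no overlap (log2 fold change 1.58, edgeR adjusted p = 0.0165). A Gzmb UMI was found in 6.62% to 9.02% of control and 16% to 39.4% of iKO neutrophils, or 1.23% to 2.34% and 0% to 8.43% after thinning to 1000 UMIs. In Cd3e-positive barcodes of the same samples Gzmb was found in 25.7% to 50.9% and 62.0% to 89.7% before thinning, and the part of free RNA from those cells was not tested. Of 9 markers of mast cells, basophils and eosinophils, 1 was detected, at 0 to 5.07 and 0 to 21.5 CPM. Between 53.1% and 59.6% of control and 44.6% and 54.5% of iKO neutrophils held at least 1 UMI of 8 genes of a second lineage (such as C1qb or Trac). Without those barcodes, the mean share was 3.54% in the controls and 0.953% in the knockouts, and 65 genes were called. No doublet caller was run.

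The 5 genes that were lower came in part from those same lists. Igkc, the immunoglobulin light chain constant region (53.9 ± 4.39 to 4.63 ± 4.20 CPM, log2 fold change -3.32), is a B cell marker, and Pf4 (-2.16) and C1qb (-1.54) are macrophage markers here, Pf4 being a platelet chemokine as well. Whether RNA of other cells in the droplets had a part in these 3 was not tested. Igf1r, the receptor of insulin-like growth factor, read 313, 338, 322 and 263 CPM in control 1 to 4 and 151, 134, 153 and 148 CPM in iKO 1 to 4. All knockouts lay below all controls with little spread, and it fell by 1.08 on the log2 scale (SE 0.20, edgeR adjusted p = 0.00915). It was no longer called without the barcodes holding a second-lineage UMI or at matched depth. Fewer UMIs were left in these settings, and why the call was lost was not tested. Over its 17 alternatives the log2 fold change ran from -1.15 to -0.75. Igf1r was also lower in Csf1r-positive myeloid cells, from 12.6 to 3.94 CPM (log2 fold change -1.65, edgeR adjusted p = 0.00897). The effects in both kinds of cell were not told apart (difference 0.56, edgeR adjusted p = 0.670). Zfp36l2, which destabilises AU-rich mRNAs, fell by 1.37 (1025 ± 411 to 395 ± 124 CPM, edgeR adjusted p = 0.0495), with groups that overlapped.

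Of the neutrophil identity genes, 1 of 28 tested was called, Ly6g, and none was lower, with a median of 0.31. Over all genes tested 1.81% were called. Ly6g read 135, 51.5, 114 and 79.5 CPM in the controls and 447, 98.9, 1186 and 473 CPM in the knockouts. It rose by 2.52 ± 0.55 (edgeR adjusted p = 0.0331), but iKO 2 lay inside the control range and the call was lost in 7 of the alternative settings. Cxcr2 (828 ± 130.1 and 954 ± 445 CPM), Retnlg (7754 ± 1561 and 12752 ± 10546 CPM) and Cebpb (4358 ± 579.7 and 3909.8 ± 754 CPM) overlapped and were not called.

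Genes of secondary and tertiary granules, which are transcribed at the myelocyte and metamyelocyte stages, varied widely between samples of 1 genotype. None of the 9 tested genes of the granule and immature list was called, although their median log2 fold change was 1.09. That list also holds genes of other kinds, such as Cebpe, Padi4 and Mki67. Ngp, neutrophilic granule protein, read 37.6, 27.3, 309 and 334 CPM in control 1 to 4 and 2045, 17.6, 1756 and 344 CPM in iKO 1 to 4. The lowest sample of all 8 was thus a knockout, iKO 2, and the highest was iKO 1. The level of iKO 1 came from few cells, since Ngp was detected in 8% of its 25 neutrophils, against 54.5% of the 33 of iKO 3. Ltf, lactoferrin, followed with 6.02, 7.58, 9.66 and 112 CPM in the controls and 302, 28.6, 662 and 17.1 CPM in the knockouts. Cd177 was at 12.1 to 46.6 CPM in controls and at 151, 13.2, 427 and 139 CPM in iKO 1 to 4, and Lcn2, a siderophore-binding granule protein, at 955 to 2243 CPM and at 3032, 1020.3, 5809.9 and 2355 CPM. In iKO 2, Ngp and Cd177 were within or below the control range and Isg15 and Ifit3 were the highest of the 4 knockouts. The 25 and 33 cells of iKO 1 and iKO 3 limit the precision of these levels.

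Chemokines and cytokines, the main secreted products of these cells, were high in both genotypes. Cxcl2, a ligand of CXCR2 that draws further neutrophils, read 22081, 28256, 13845 and 10509 CPM in control 1 to 4 and 18459, 27288, 6119 and 14296 CPM in iKO 1 to 4. The groups lay on top of each other (log2 fold change -0.17 ± 0.43, edgeR adjusted p = 0.903). Il1b stood at 10826 ± 1987 and 9957 ± 2283 CPM (-0.12 ± 0.26, edgeR adjusted p = 0.898), Osm at 553 ± 53.9 and 552 ± 185 CPM, and Il1rn, the antagonist of IL-1, at 844 ± 173 and 1105 ± 781 CPM. Ccl3 and Ccl4, inflammatory chemokines, overlapped between the groups: Ccl3 was lowest in iKO 3, at 166 CPM against 1471 to 6812 CPM in the other 7 samples, and Ccl4 in control 4 (775 CPM), followed by iKO 3 (859 CPM). None of 15 chemokine and receptor genes and none of 9 cytokine genes was called, with medians of 0.18 and -0.02. The standard error of the log2 fold change was 0.71 for Ccl3 and 0.26 for Il1b, so the data bound a change in Ccl3 less tightly.

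Markers of the tumour-adapted state were not called either. None of 22 passed, with a median of -0.21, and Spp1 (osteopontin) alone ranged from 466 to 7889 CPM over the controls and from 257 to 3742 CPM over the knockouts. Cd14, the co-receptor for lipopolysaccharide, was at 1985 ± 953 and 2391 ± 293 CPM. Of 27 hypoxia and glycolysis genes none was called (median 0.06), with Gapdh at 2906 ± 647 and 3678 ± 218 CPM and Hilpda, a hypoxia-induced lipid droplet protein, at 1780.3 ± 668 and 1685 ± 1239 CPM. None of 17 genes of immunosuppression was called (median 0.10): Cd274, which encodes PD-L1 and is known to answer to interferon, read 257, 467, 254 and 455 CPM in the controls and 468, 723, 131 and 217 CPM in the knockouts, and Ptgs2, the cyclooxygenase of prostaglandin synthesis, stood at 1329.8 ± 403 and 854 ± 209 CPM. Its log2 fold change was -0.63 (edgeR adjusted p = 0.379). The 23 immediate-early and heat shock genes had negative estimates for 19 and a median of -0.31, and none was called; Hspa1b had the lowest, at 89.2 ± 94.8 and 13.4 ± 6.23 CPM (-2.58, edgeR adjusted p = 0.106).

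Single genes passed in 3 further lists, where 1.70% of all genes tested were higher. A single call says little about a list of this size. Cybb, the catalytic subunit of the NADPH oxidase that makes superoxide, was the only called member of 13 oxidative burst genes (45.1 ± 15.1 to 116 ± 37.5 CPM, log2 fold change 1.35, edgeR adjusted p = 0.0452), and lost the call in 10 alternative settings. Its groups overlapped, with iKO 2 at 61.6 CPM and control 3 at 67.6 CPM. Its partners Cyba (1009.8 ± 193 and 1294 ± 277 CPM) and Rac2 (624 ± 149 and 914 ± 328 CPM) were not called. All 13 oxidative burst estimates were positive, with a median of 0.44. Over all genes tested, 2072 of 4475 were positive and the median was -0.04. Casp1, the protease that cleaves pro-IL-1β, was the only one of 22 survival and death genes (20.7 ± 8.35 to 69.2 ± 27.1 CPM, 1.69, edgeR adjusted p = 0.0407), and lost the call in 6. Fcgr4, an activating receptor for IgG, was the only one of 27 adhesion and receptor genes, at 111, 74.3, 67.6 and 65.0 CPM in the controls and 202, 239.7, 244 and 163 CPM in the knockouts. It rose by 1.41 ± 0.25 (edgeR adjusted p = 0.00758) with no overlap between the groups. Mcl1, on which neutrophil survival depends, was at 3814 ± 501 and 2831 ± 348 CPM and was not called.

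The typical neutrophil of every knockout sample held more interferon transcripts than that of any control sample. In neutrophils thinned to 1000 UMIs each (691 control and 212 iKO cells were deep enough), the median number of UMIs from the type I interferon list was 10, 7, 9 and 7 in control 1 to 4 and 17.5, 27, 37 and 20 in iKO 1 to 4. The sample means of these medians were 8.25 ± 1.5 and 25.4 ± 8.73 (SD, n = 4 each), and cells with at least 20 such UMIs made up 8% to 23.4% of the controls and 45.8% to 81.8% of the knockouts by sample. Ifitm1 and Ifitm3 are among the 3 most abundant members of the list with Ifi27l2a, and without the 2 Ifitm genes the medians were 3, 4, 5 and 3 in the controls and 13.5, 18, 22 and 10 in the knockouts. No control sample reached the lowest knockout in either version. These are descriptions over cells, and no p-value is given for a score over the list.

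**Figure D4:**
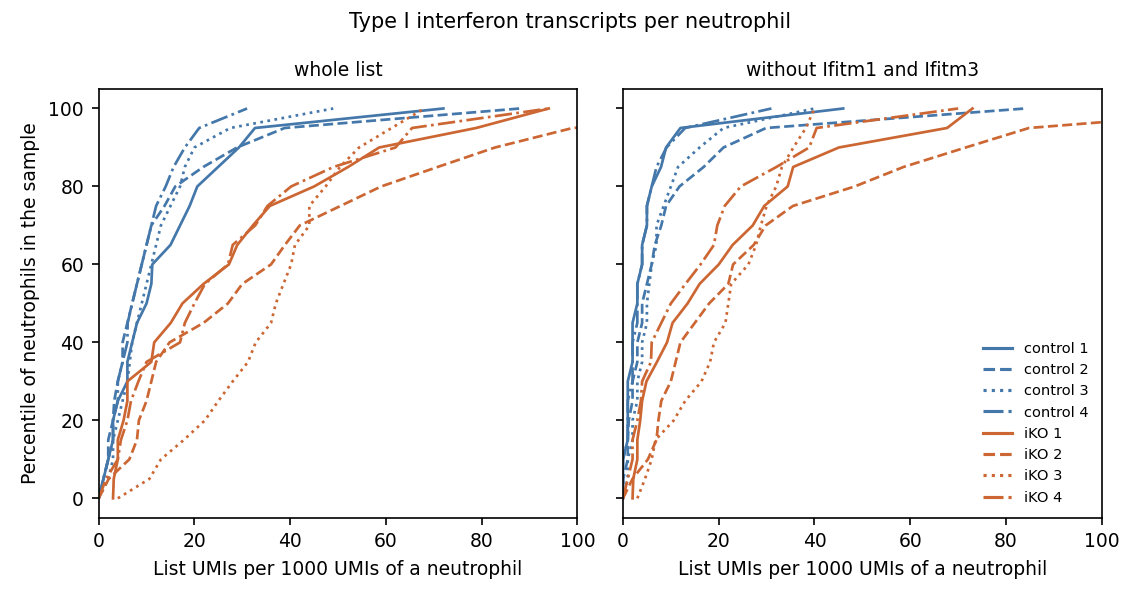
Percentile of the neutrophils of a sample (vertical axis) against their type I interferon list UMIs per 1000 UMIs (horizontal axis), 1 curve per sample, for the whole list and for the list without Ifitm1 and Ifitm3; the horizontal axis ends at 100. At the median the 4 control curves lie between 7 and 10 and the 4 iKO curves between 17.5 and 37 for the whole list.

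Within each sample, cells with more interferon transcripts held fewer transcripts of the tumour-adapted list. Spearman's rho between both sums over the cells of 1 sample ranged from -0.71 to -0.23 (median -0.61) and was negative in 8 of 8 samples; without Ifitm1 and Ifitm3 it ranged from -0.66 to -0.20 (median -0.45). Identity and tumour-adapted sums gave -0.52 to -0.16, and the type I interferon and MHC class I sums 0.00 to 0.59. Cells of 1 sample share a library, and both sums come from the same 1000 UMIs, so that more of one leaves less for the other. The median tumour-adapted sum was 18, 25, 8 and 14 UMIs in control 1 to 4 and 10.5, 28, 6 and 10 in iKO 1 to 4. The median identity sum was 38.5, 31, 33 and 31 in the controls and 26, 31, 52 and 34.5 in the knockouts. Within the knockouts, iKO 2 was high in the tumour-adapted list and iKO 3 in the identity list, and the latter also had the highest granule list sum, 5 UMIs where the other samples had 0 or 1.

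**Figure D5:**
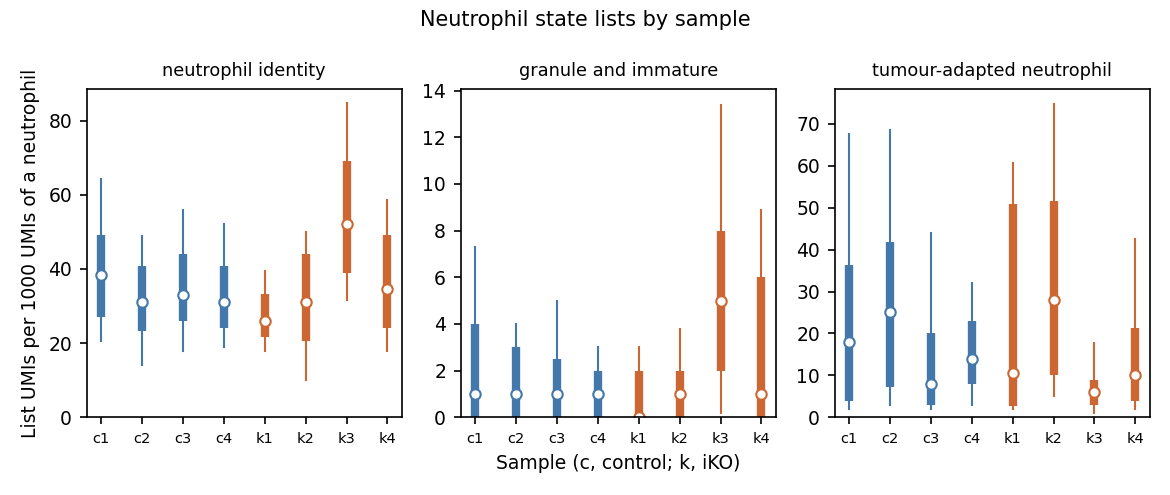
UMIs per 1000 UMIs (vertical axis) of the identity, granule and immature, and tumour-adapted lists in the neutrophils of each sample (horizontal axis), with a dot for the median, a thick line for the 25th to 75th percentile and a thin line for the 10th to 90th. The genotypes overlap in all 3 lists, and iKO 3 has the highest identity median, 52, and the lowest tumour-adapted median, 6.

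The interferon response was not particular to neutrophils. In Csf1r-positive myeloid cells of the same samples, 51 of the same 56 type I genes were higher (median 1.64) and 1, Ifitm1, was lower (log2 fold change -1.21, edgeR adjusted p = 0.0238), where 5.03% of 11705 genes were higher and 3.97% lower. When the genotype effect in neutrophils was tested against that in Csf1r-positive myeloid cells, with each sample as a block, 17 of 10285 genes (0.165%) passed, 14 of them (0.136%) with a more positive effect in neutrophils, and none of the 56 was among them. S100a8 and S100a9, which chose the cells, are 2 of the 14 and are read as no result, leaving 12. In 4 neutrophil genes among these, the change that passed its own test was a lower level in the myeloid cells. Stfa2l1 (difference in log2 fold change 2.22) had a log2 fold change of 0.52 in neutrophils, not called, and of -1.85 in myeloid cells, from 3.33 to 0.894 CPM (edgeR adjusted p = 0.00713). Mmp9 (2.52) had 0.79 in neutrophils, not called, and -1.96 in myeloid cells, from 2.36 to 0.561 CPM (edgeR adjusted p = 0.0218). Mmp8 (1.67) and Cstdc4 (1.77) had -0.88 and -1.29 in myeloid cells. Those myeloid levels were lower in the knockouts beside the lower share of neutrophils in the same pools, and the part of free neutrophil RNA in them was not tested. Also among the 12 were Cxcr2 (difference 1.77, edgeR adjusted p = 0.0498), Chil1, Stfa3 and Shisa5. The rest were Adm, Adora2b, Cd209a and Clec10a, at 1.02 to 6.55 CPM in control and 11.4 to 24.2 CPM in iKO neutrophils.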

How the data were processed

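The deposited files hold raw UMI counts per gene and barcode, 1 matrix for each of 8 hashtagged samples. Per the submitters' processing notes they were made with Cell Ranger 7.1.0 on GRCm39. The 92 spike-ins and 4 hashtag features were left out of 32528 features, leaving 32432 genes. Of 23731 barcodes, 1241 with under 300 genes or over 10% mitochondrial UMIs were removed. No doublet caller was run.

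Neutrophil counts were summed per sample and tested with edgeR 4.0.16 in R 4.3.3 (TMM, filterByExpr, quasi-likelihood, Benjamini-Hochberg, threshold 0.05). Alternatives used DESeq2 1.42.0, other rules and filters, a depth of 2000 UMIs and left-out samples. Shares and depth were compared with two-sided exact permutation tests (scipy 1.17.1). On counts simulated for the 4475 genes, 91% of 4-fold changes were recovered and 5.21% of calls were false. The changes were placed only in genes above a minimum mean count. The simulated spread followed a gene's abundance and not its own variation. These rates may therefore not hold for low or unusually variable genes. Pairs of samples within a genotype differed by 4.04 to 25.3 times what counting error alone gives (chi-square over its degrees of freedom), so each was counted once.

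The members and gene lists were chosen with earlier results of these data known. Genes were named by rule: the 15 largest rises and 10 largest falls past the threshold with at least 50 CPM in the higher group and no overlap, outside the marker lists; the 4 most abundant genes and the called gene with the smallest p of each list; the 5 smallest p of the comparison with myeloid cells in each direction; Trex1 and the rule's genes. Others, such as Ly6c2, Plac8, Cxcl10, Irf9 and Igkc, were chosen after their values were seen. Ddx58 and Il1f9 are named as in the files. Mx1, Mx2 and Clec7a are not analysed here.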

Additional observations from a re-analysis of the deposited data

Results flagged for a closer look

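In 14 of 176 groups of 4 samples examined, 1 sample stood apart from the other 3 by Dixon's criterion at the 95% level, where chance gives about 1 in 20. Among the interferon genes, control 2 was high for Ifi206 (13.6 CPM, others 4.51 to 5.82) and Herc6 (33.3 CPM, others 10.5 to 12.9), and control 1 for Ifitm3 (1429 CPM, others 1120.5 to 1166). Control 3 was high for Cybb, the oxidase subunit (67.6 CPM, others 36.4 to 38.8). Control 1 was also high for the chemokine Ccl5 (436 CPM, others 117 to 140.1), the cystatin Stfa3 (153 CPM, others 9.66 to 31.8) and Cd14 (3407 CPM, others 1382 to 1608), and low for Ptgs2 (727 CPM, others 1505 to 1562). Control 4 was high for lactoferrin, Ltf (112 CPM, others 6.02 to 9.66). Among the knockouts, iKO 3 was high for the receptor Cd300ld (423 CPM, others 277 to 295) and iKO 2 for the C-type lectin Clec4e (1583 CPM, others 1242 to 1294).

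The neutrophil barcodes of iKO 4 stood apart in 3 genes of MHC class II presentation. Cd74, the invariant chain, was at 1548 CPM against 194 to 281 in the other knockouts, H2-Ab1 at 912 CPM against 126 to 180.1, and H2-Aa at 665 CPM against 87.2 to 144. The same sample set the upper end of the summed dendritic cell markers in knockout neutrophils, 3684 CPM.

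The genotype effect differed between neutrophils and Csf1r-positive myeloid cells, by an interaction term in edgeR, for 7 genes named by rule. It was more positive in neutrophils for Stfa2l1 (difference in log2 fold change 2.22, edgeR adjusted p = 0.00208), Cstdc4 (1.77, 0.00563), Mmp8 (1.67, 0.00744), Stfa3 (4.15, 0.00819) and Mmp9 (2.52, 0.00909). It was more negative for the signalling adaptor Pik3ap1 (-1.57, 0.0214) and for Cd300ld (-1.38, 0.0340). None of these 7 was called in the neutrophils alone. In the myeloid cells Stfa2l1 (log2 fold change -1.85), Cstdc4 (-1.29), Mmp8 (-0.88) and Mmp9 (-1.96) were lower and Pik3ap1 (1.02) and Cd300ld (1.07) higher in the knockouts by edgeR, while Stfa3 was too low there to be tested alone.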

How the results depend on the processing

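Whether sample numbers pair the samples is not known. Deviations of same-numbered samples correlated at -0.06, 0.36, 0.21 and -0.03, beside -0.36 to 0.13 for samples of different number. The values for numbers 2 and 3 were thus above those of all differently numbered samples, and those for 1 and 4 were not. With the number as a replicate block, 119 genes were called (102 higher, 17 lower), including all 81. The count was 138 (128 higher, 10 lower) with Csf1r left out of the rule (an alternative chosen after seeing the data), 130 (114 and 16) with DESeq2's Wald test and 250 (174 and 76) without a filter on low counts. Leaving out 1 sample gave 49 calls (without control 4) to 114 (without iKO 2). The interaction gave 31 genes (10 more positive in neutrophils, 21 more negative) at matched depth and 83 (51 and 32) without the filter, and 9 (without iKO 1) to 54 (without iKO 2) with 1 sample left out, 32 without control 1 or iKO 3; each sample is already a block there. With 1 sample left out, the share differed by -6.85 to -5.34 points, median UMIs by 1818 to 3032 and median genes by 280.2 to 381.2, each with p = 0.0571 (exact permutation test), the smallest that 3 against 4 allow. The difference in interferon UMIs per 1000 was 17.1, 13.2 to 19.8 with 1 sample left out and 12.1 without Ifitm1 and Ifitm3. Of 84 genes named by rule, 24 were called and 18 of those in every alternative that tested them; Cybb, Ly6g, Casp1, Samhd1, Ifit3b and Igf1r lost the call in at least 2. Ifit3b lost it without second-lineage barcodes and without control 3. The log2 fold change of Cd74 in neutrophils, 0.09, turned to -1.35 without barcodes holding a second-lineage UMI, and ran from -1.14 (without iKO 4) to 0.39 (without iKO 3) with 1 sample left out. Cd74 was called lower in 2 of its 16 alternatives. H2-Aa, not called in the main fit (-0.19), was called lower at matched depth, without second-lineage barcodes and without iKO 4.

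At matched depth 74 genes were called, 50 of them shared with the 60 of the 81 still testable, and without second-lineage barcodes 65, 46 shared with the 65 still testable; why testable genes lost the call was not tested. Depth limits low genes most: iKO 1 and iKO 3 rest on 25 and 33 cells.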

Other observations

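Of the 76 genes that were higher in knockout neutrophils, 14 were on none of the lists, and the following were chosen after their values were seen. Acvrl1, a receptor of the TGF-beta family known from endothelium, read 22.6, 18.2, 11.3 and 13.6 CPM in control 1 to 4 and 93.6, 52.8, 95.9 and 43.7 CPM in iKO 1 to 4, with no overlap (log2 fold change 2.01 ± 0.35, edgeR adjusted p = 0.00739). Lipg, endothelial lipase, was at 10.8 ± 5.87 and 61.6 ± 37.3 CPM (2.67, edgeR adjusted p = 0.00739), with iKO 1 inside the control range. Glrx, a thiol oxidoreductase, went from 168 ± 50.3 to 378 ± 110.1 CPM (1.18, edgeR adjusted p = 0.0382) and the lysosomal protease Ctss from 177 ± 25.2 to 349 ± 76.2 CPM (0.97, edgeR adjusted p = 0.0411), both without overlap. Trim30d, Dtx3l, Daxx, Trafd1, Cmtr1, Ifit1bl2 and Gm20559 were among the others.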
